A study of Mus musculus with 22 samples.

Results

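Immediate early genes are transcribed within minutes of strong synaptic input, from promoters bound by factors such as CREB and SRF that are already present in the resting neuron. Some encode transcription factors that act in the nucleus, and others encode proteins that act at synapses. In the hippocampus they mark neurons that were active during learning, and Arc mRNA is known to travel into dendrites. Described here are 10 such genes chosen by symbol, of 29848 genes in the tables: Arc, Npas4, Egr1, Homer1, Plk2, Fos, Junb, Nr4a1, Per1 and Btg2. All 10 have a row in both tables.

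All mice were C57BL/6 double transgenics, Camk2a-tTA/tetO-EGFP-L10a, in which a transactivator under the Camk2a promoter of forebrain excitatory neurons switches on ribosomal protein L10a fused to EGFP. Ribosome-bound RNA was pulled down with a GFP antibody from dendrite or soma dissections of hippocampal area CA1. The 8 immunoprecipitates were 2 fear conditioned (FC) soma, 2 home cage (HC) soma, 2 FC dendrite and 2 HC dendrite libraries, and 3 supernatants held unbound RNA (FC soma 2, FC dendrite 2 and HC dendrite 2). Each of the 11 libraries was run paired-end and single-end, and both runs were counted as 1 replicate. Fear conditioning teaches an animal to link a shock with its setting or a cue. No source used here gives the age of the mice, the training protocol or the time from training to dissection. Nothing in the labels ties each library to an animal of its own, so the spread behind each p-value may be technical.

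Values are FPKM, fragments per kilobase of annotated sequence per M mapped, for the coding sequence with the first stretch of the 3′ UTR (the coding part), unless the rest of the 3′ UTR is named. FPKM are given as deposited, and log2 differences are on log2(scaled FPKM + 1), which understates the change of low genes. The spacing of low FPKM placed depth at 5.65 to 35.6 M fragments in paired-end and at 0.524 to 10.7 M reads in single-end runs. Paired-end depth was 19.2 and 29.9 M in FC soma against 13.4 and 14.4 M in HC soma. It was 21.0 and 18.6 M in FC dendrite against 5.65 and 17.7 M in HC dendrite. Single-end depth overlapped in soma (4.15 and 4.10 M against 2.34 and 4.36 M). In dendrite it did not (2.79 and 2.76 M against 2.27 and 0.524 M). The part of depth in the differences below was not tested. A value of 0 can be a failed estimate, since the housekeeping gene Hprt also has it in some libraries, and is written as listed at 0. Paired-end FC soma libraries listed 9267 and 9211 genes above 0, against 5006 and 3220 in HC soma. FC dendrite libraries listed 12205 and 6147, against 3344 and 4695 in HC dendrite. One gene, Rpsa, held 74.0% of the summed FPKM of HC soma 2.

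**Figure D1:**
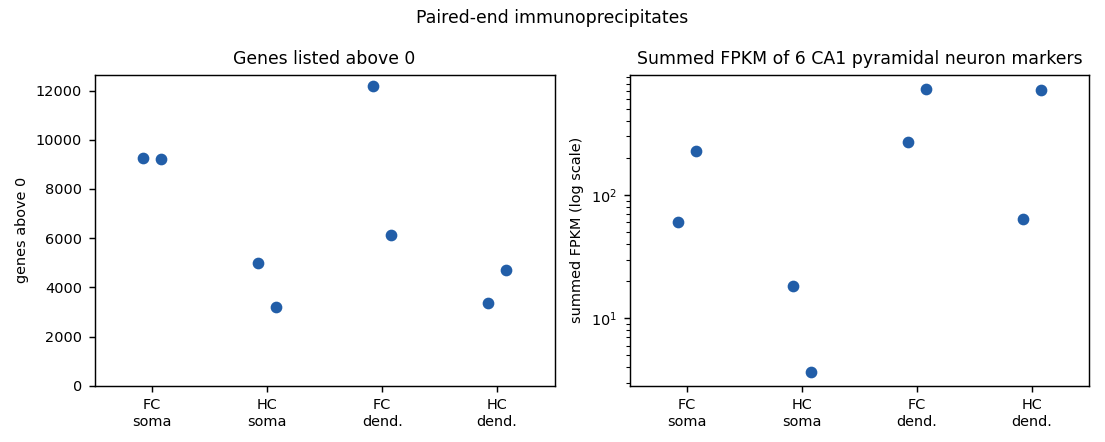
Genes listed above 0 (left) and summed FPKM of 6 CA1 pyramidal neuron markers on a log axis (right) in each paired-end immunoprecipitate, 1 point per library. Both FC soma libraries lie above both HC soma libraries in both panels, with 9211 or more genes against 5006 or fewer.

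In the authors' mm9 annotation, Arc lies on chromosome 15 from 74499513 to 74503000 on the minus strand, and Npas4 on chromosome 19 from 4984355 to 4989971 on the minus strand. Homer1 lies on chromosome 13 (94074450 to 94174917, plus strand) and Plk2 on the same chromosome (111185252 to 111191051, plus strand). Fos lies on chromosome 12 (86814851 to 86818219, plus strand), Junb on chromosome 8 (87498383 to 87502617, minus strand) and Nr4a1 on chromosome 15 (101097277 to 101105225, plus strand). Per1 lies on chromosome 11 (68908756 to 68919960, plus strand) and Btg2 on chromosome 1 (135971442 to 135975732, minus strand). Homer1 has 4 models, the shortest of which ends at 94126785 with 558 coding bases. The table holds 1 value for all 4, so the short activity-induced form, Homer1a, cannot be separated from the long forms. One of the 2 models of Arc places its whole transcript of 3054 bases in the coding part, so that reads from its 3′ UTR can also enter that part. Junb overlaps AK006748 on the same strand, and its value may include reads of that row.

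Promoter windows, from 250 bases before to 50 bases after the start, were read from RefSeq (GRCm38.p6) for 8 of the 10 genes, as 10 windows. Those for Arc and Egr1 were not used here. The cAMP response element (CRE), TGACGTCA, is the site that CREB binds, and its half-site is TGACG. Both were searched on both strands, and each full CRE holds 2 overlapping half-sites. The half-site was in 9 of the 10 windows and in at least 1 window of each of the 8 genes, against 20.8% of all 32851 windows of this length. The full CRE was in the windows of Btg2 and Plk2, against 1.79% of all windows. The CArG box, which SRF binds, was in 0 windows against 1.63%, and TATAAA was in 2 (Junb and Fos) against 13.6%. Sequence further upstream, and that of Arc and Egr1, was not searched, so the genes may hold such sites elsewhere. The 5 windows below are examples from genes of the somatic results that follow. As deposited, Npas4, Homer1 and Plk2 had higher levels in both paired-end FC soma libraries than in either HC soma library. Nr4a1 and Btg2 did not. The same was so for 36.5% of all genes above 0 in soma, and Plk2 overlapped after scaling and in the single-end run. Fos also had higher levels in the paired-end FC soma libraries, and its window is not shown. Of the 2 windows of Homer1 the first is shown, and the second, with 0 half-sites, is not. Half-sites and full CREs are in capitals, 5′ to 3′ on the strand of the gene, and a match in a window says nothing of whether a factor binds there. The windows span chr19:4989922-4990221 for Npas4 (minus strand), chr13:93303507-93303806 for Homer1 (plus strand), chr13:110394794-110395093 for Plk2 (plus strand), chr15:101266596-101266895 for Nr4a1 (plus strand) and chr1:134079106-134079405 for Btg2 (minus strand), in GRCm38.p6.
Npas4: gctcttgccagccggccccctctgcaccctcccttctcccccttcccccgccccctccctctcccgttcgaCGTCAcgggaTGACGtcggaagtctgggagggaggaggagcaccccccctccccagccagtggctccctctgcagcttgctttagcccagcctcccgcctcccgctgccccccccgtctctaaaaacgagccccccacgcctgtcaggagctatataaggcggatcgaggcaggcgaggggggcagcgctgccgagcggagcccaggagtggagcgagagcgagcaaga
Homer1: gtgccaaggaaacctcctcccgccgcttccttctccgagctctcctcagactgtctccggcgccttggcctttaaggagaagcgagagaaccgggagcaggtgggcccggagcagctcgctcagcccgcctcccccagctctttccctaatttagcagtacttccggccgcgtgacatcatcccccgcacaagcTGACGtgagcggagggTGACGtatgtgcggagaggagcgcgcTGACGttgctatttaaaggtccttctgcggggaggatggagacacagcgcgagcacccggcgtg
Plk2: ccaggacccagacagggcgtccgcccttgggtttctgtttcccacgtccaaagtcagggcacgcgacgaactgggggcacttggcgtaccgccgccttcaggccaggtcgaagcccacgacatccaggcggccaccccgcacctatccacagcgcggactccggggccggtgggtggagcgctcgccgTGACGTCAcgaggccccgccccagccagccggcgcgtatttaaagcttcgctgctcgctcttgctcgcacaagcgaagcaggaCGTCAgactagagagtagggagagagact
Nr4a1: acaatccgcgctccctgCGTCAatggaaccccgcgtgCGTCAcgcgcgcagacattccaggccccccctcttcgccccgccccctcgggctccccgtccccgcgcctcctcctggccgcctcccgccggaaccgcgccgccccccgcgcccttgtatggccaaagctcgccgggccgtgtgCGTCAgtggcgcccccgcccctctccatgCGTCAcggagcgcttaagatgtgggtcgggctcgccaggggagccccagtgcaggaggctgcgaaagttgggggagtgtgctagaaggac
Btg2: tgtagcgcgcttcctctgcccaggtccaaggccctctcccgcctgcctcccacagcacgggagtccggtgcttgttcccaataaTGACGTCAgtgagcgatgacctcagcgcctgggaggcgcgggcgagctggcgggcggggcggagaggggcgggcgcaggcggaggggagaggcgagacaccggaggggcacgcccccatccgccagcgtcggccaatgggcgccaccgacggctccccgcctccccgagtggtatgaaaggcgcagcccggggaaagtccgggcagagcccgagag

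**Figure D2:**
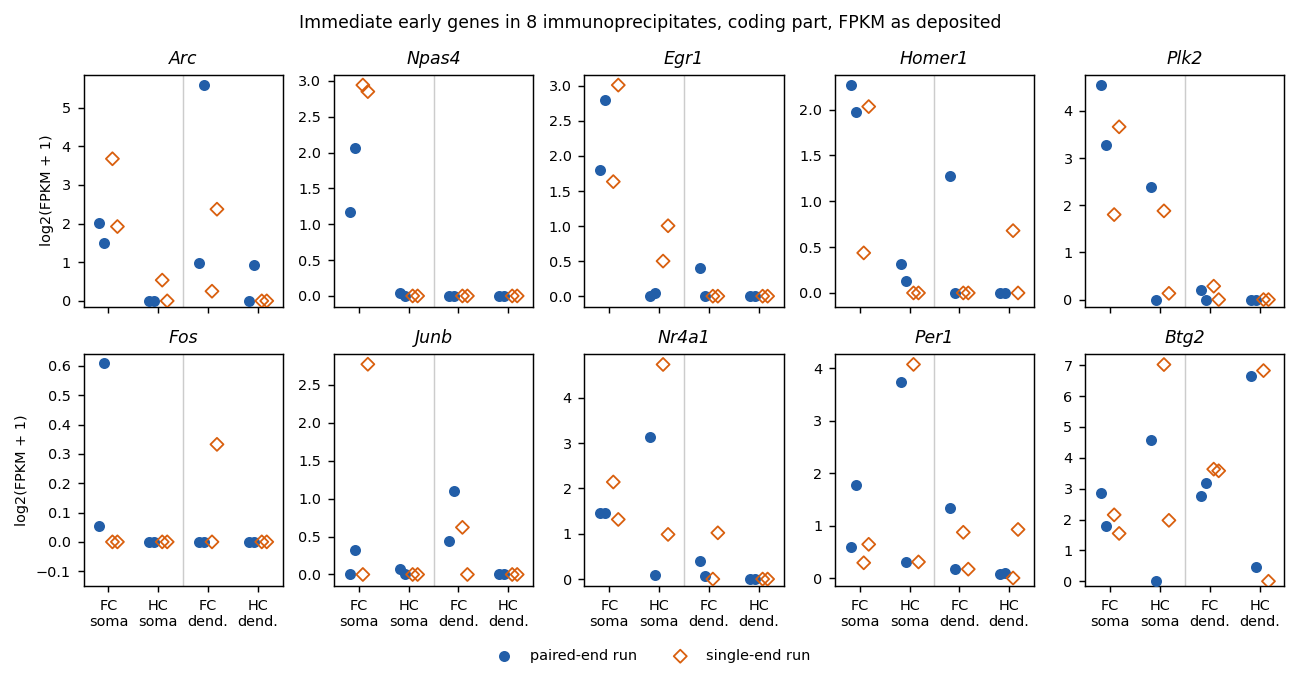
Coding-part FPKM of each gene, as log2(FPKM + 1) on a scale of its own, in 8 immunoprecipitates (FC fear conditioned, HC home cage, dend. dendrite). Filled points are paired-end and open diamonds single-end runs, 1 point per library. Npas4 in soma is at 1.25 and 3.17 FPKM after fear conditioning and at no more than 0.0261 in the home cage.

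In soma, mRNAs of 6 genes had higher deposited FPKM in both FC libraries than in either HC library of the paired-end run: Npas4, Egr1, Homer1, Arc, Fos and Plk2. This was so for 36.5% of all genes above 0 in soma, so many genes share the pattern. After scaling between libraries it held for 5 of the 10 (Plk2 overlapped), against 30% of all genes. Of the 5 members that reached the expression minimum of 1, it held for 1 (Arc), against 33.4% of all genes reaching it. Npas4, Egr1, Homer1 and Fos lay below that minimum, so the excess over all genes rests on low genes. By limma 0 of the 2928 genes tested passed an adjusted p of 0.05 (background 0%), so none of the genes here passed. In the single-end run as deposited 4 of the 10 stood apart (Arc, Npas4, Egr1 and Homer1), against 32.9% of all genes. In both runs after scaling Arc, Npas4 and Homer1 did, against 13.1% of all genes.

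Npas4 encodes a neuronal transcription factor induced by calcium entry. It was at 1.25 and 3.17 FPKM in the paired-end FC soma libraries, about 78.3 and 310.3 fragments. In HC soma Npas4 was at 0.0261, about 1.15 fragments, and listed at 0. The groups did not overlap, and the single-end run had Npas4 at 6.69 and 6.22 in FC soma against 0 in both HC soma libraries. Its mean was below the expression minimum of 1, and in a fit of all 15213 genes above 0 its log2 difference was 1.20 (SE 0.35, limma adjusted p = 0.564). The rest of the 3′ UTR of Npas4 was listed at 0 in all 11 libraries of both runs.

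Egr1 encodes a zinc-finger transcription factor and lies on chromosome 18 from 35020861 to 35024610 on the plus strand. It was at 2.49 and 5.94 FPKM in FC soma, about 99.5 and 369 fragments. In HC soma Egr1 was listed at 0 and at 0.0342, about 1.02 fragments. The single-end run had Egr1 at 2.1 and 7.06 in FC soma against 0.415 and 1.01 in HC soma, which do not overlap as deposited and do after scaling. The log2 difference of Egr1 was 1.75 (SE 0.40, limma adjusted p = 0.466, 15213 genes). In the rest of its 3′ UTR Egr1 was at 0.587 and 2.31 in FC soma, against 0.0751 and 0 in HC soma. The single-end run of that part had Egr1 at 11.2 and 14.6 in FC soma and listed it at 0 in both HC soma libraries.

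Homer1, a scaffold of the postsynaptic density, was at 3.82 and 2.92 FPKM in FC soma (about 154 and 183 fragments) against 0.247 and 0.0960 in HC soma (about 6.97 and 2.90). The single-end run had Homer1 at 0.354 and 3.09 in FC soma and listed it at 0 in both HC soma libraries. All 4 FC values were above the HC values of their run, although 0.354 rested on about 3.08 reads. The log2 difference of Homer1 was 1.22 (SE 0.45, limma adjusted p = 0.587, 15213 genes). The rest of its 3′ UTR was at 2.37 and 3.88 in FC soma against 0.657 and 0 in HC soma, without overlap as deposited and with overlap after scaling.

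Arc encodes a synaptic protein that promotes removal of AMPA receptors. It was at 3.07 and 1.80 FPKM in FC soma, about 179.7 and 164 fragments, and listed at 0 in both HC soma libraries. In the single-end run Arc was at 11.8 and 2.79 in FC soma against 0.451 and 0 in HC soma. The rest of the Arc 3′ UTR followed, at 1.23 and 2.95 in FC soma and listed at 0 in both HC soma libraries. Although the groups did not overlap in either run, the log2 difference of Arc was 1.38 with an SE of 1.35 (limma adjusted p = 0.678, 2928 genes).

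Plk2, a kinase that weakens synapses after prolonged activity, had the highest FPKM of the 10 genes in both paired-end FC soma libraries. It was at 22.4 and 8.66 FPKM in FC soma against 4.22 and 0 in HC soma. In the single-end run Plk2 was at 2.49 and 11.7 in FC soma against 2.69 and 0.0965 in HC soma, so the groups overlapped. The log2 difference of Plk2 was 1.87 (SE 1.26, limma adjusted p = 0.569). It was 0.40 without HC soma 2, 3.55 without HC soma 1 and 0.76 in the single-end run. Fos, a subunit of the AP-1 transcription factor, was low throughout: 0.0376 and 0.527 FPKM in FC soma, about 1.07 and 23.3 fragments, and listed at 0 in both HC soma libraries. The single-end run listed Fos at 0 in all 4 soma immunoprecipitates, so its difference of 0.21 on the log2 scale (adjusted p = 0.587 by limma) rested on 1 library.

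The other 4 genes did not separate upward in soma in the coding part of either run. Junb, an AP-1 partner of Fos, was listed at 0 and at 0.255 FPKM in FC soma against 0.0552 and 0 in HC soma, with a log2 difference of 0.04 (SE 0.22). Its single-end coding part was listed at 0 and at 5.81 in FC soma, about 36.2 reads, and at 0 in both HC soma libraries. The rest of the Junb 3′ UTR was at 1.22 and 3.48 in paired-end FC soma and listed at 0 in both HC soma libraries. The single-end run listed that part of Junb at 0 in all 4 soma immunoprecipitates. The share of all genes that separate in that part is not given. Nr4a1, an orphan nuclear receptor, was at 1.74 and 1.76 in FC soma against 7.84 and 0.0665 in HC soma. Per1, a repressor of the circadian clock, was at 0.510 and 2.43 in FC soma against 12.4 and 0.239 in HC soma. Btg2, which recruits mRNA deadenylases and restrains proliferation, was at 6.21 and 2.48 in FC soma against 22.9 and 0 in HC soma. In each of these last 3 genes HC soma 1 was the highest soma immunoprecipitate as deposited and HC soma 2 the lowest. After scaling FC soma 1 was the lowest for Per1, at 0.385 against 0.895 in HC soma 2. The log2 differences were -0.96 for Nr4a1 (SE 1.22), -1.81 for Per1 (SE 1.25) and -0.75 for Btg2 (SE 2.11), with limma adjusted p of 0.777, 0.572 and 0.946. The single-end run also had HC soma 1 highest, at 25.6 for Nr4a1, 15.8 for Per1 and 129 for Btg2. In that run after scaling these 3 genes were lower in both FC soma libraries than in either HC soma library, against 3.51% of all genes. As deposited 0 of the 10 were, against 1.49%.

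The limma count in soma was 0, also under robust moderation. Unadjusted p was under 0.05 for 217 genes, 174 of them higher after fear conditioning and 43 lower. An exact permutation test of 2 libraries against 2 can reach 0.333 at the lowest. Leaving out 1 library changed calls: 135 genes passed without FC soma 1, 121 without FC soma 2 and 102 without HC soma 2, none of them among the 10. In fits without an expression minimum, the calls of Npas4, Egr1 and Fos changed without FC soma 1 or FC soma 2. In both of these fits the lone FC soma library adds no spread of its own, and Fos is listed at 0 in the 6 other immunoprecipitates. The share of all genes passing there is not given, so these calls are not read as results. With 1 library left out, the log2 difference spanned 0.90 to 1.45 for Npas4, 1.41 to 2.04 for Egr1 and 0.04 to 0.38 for Fos.

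Some other values also differed between FC and HC soma, while others overlapped. The summed FPKM of 6 CA1 pyramidal neuron markers was 60.5 and 226 in FC soma against 3.71 and 18.3 in HC soma. Of 9 astrocyte markers, 9 were above 0 in FC soma (summed FPKM 5.06 to 81.5) and 5 in HC soma (1.22 to 11.7), where Aqp4, Aldh1l1, Gja1 and Aldoc were listed at 0. Of 6 interneuron markers, 3 were above 0 in FC soma (1.98 to 12.1) and 0 in HC soma. The astrocyte sums of FC and HC soma overlapped. So did those of oligodendrocyte markers, at 2.01 to 92.4 in FC soma and 0.888 to 20.6 in HC soma. Microglia markers overlapped too, with 0.0167 to 3.06 in FC soma and 0.0353 to 5.26 in HC soma. All genes tested had a median log2 difference of 0.43 scaled and 1.21 as deposited. The part of these differences, and of the number of genes above 0, in the somatic result was not tested. In bulk RNA, fewer cells of a type and less RNA per cell cannot be told apart.

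**Figure D3:**
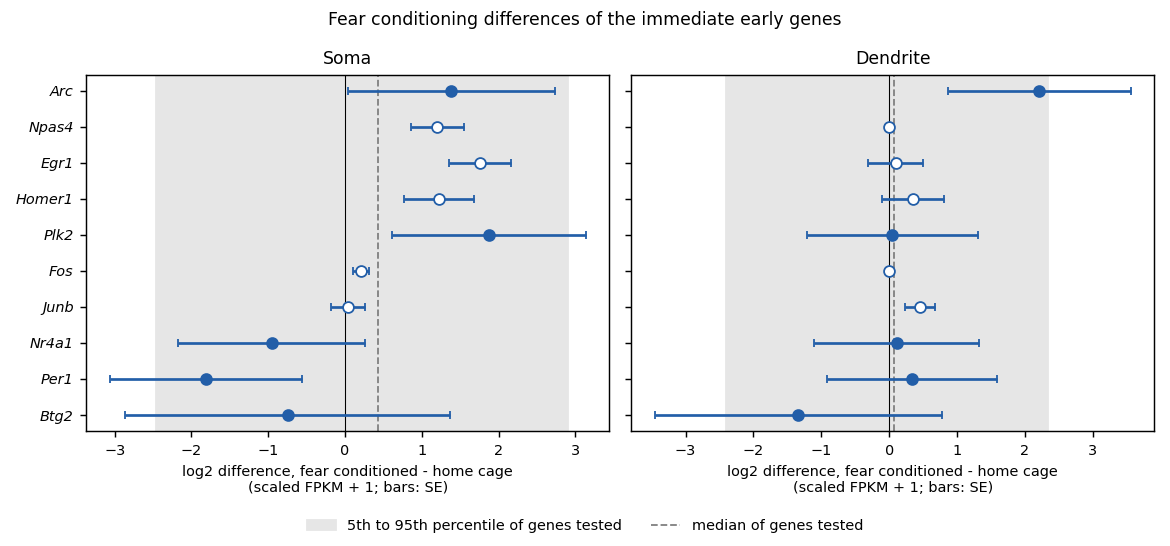
Log2 differences, FC minus HC, of the 10 genes in soma (left) and dendrite (right), with bars of 1 SE from limma. Filled points are genes at the expression minimum and open points come from the fit without it, grey spans the 5th to 95th percentile of the genes tested, and no gene passed. Arc in dendrite has the highest value, 2.21, and Plk2 the highest in soma, 1.87.

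In dendrite, Arc had the highest paired-end FPKM of the 10 genes after fear conditioning, in 1 of 2 libraries. Arc was at 0.961 and 46.7 FPKM in FC dendrite, about 61.7 and 2658 fragments, against 0 and 0.902 in HC dendrite. The rest of the Arc 3′ UTR was at 1.02 and 121 in FC dendrite against 0 and 2.22 in HC dendrite. In the single-end run the coding part was at 0.189 and 4.18 in FC dendrite and listed at 0 in both HC dendrite libraries. The value of 0.189 rested on about 1.62 reads, and 1 Arc read in single-end HC dendrite 2 would be 0.625 FPKM. A level like that of FC dendrite 1 could go unseen in that HC library. FC dendrite 2 was thus the highest dendrite library in both runs and both parts, while FC dendrite 1 was close to HC dendrite 2 in the paired-end coding part. The log2 difference of Arc was 2.21 (SE 1.35, limma adjusted p = 0.944), and after scaling the groups overlapped.

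Ganab, which encodes a subunit of a glucosidase of the endoplasmic reticulum, had a pattern like that of Arc across the 11 paired-end libraries (Pearson's r = 0.98, among 2938 genes). It was at 31.8 FPKM in FC dendrite 2, against at most 1.53 in any other library, so the correlation rests on that library.

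Npas4 and Fos were listed at 0 in all 4 paired-end dendrite immunoprecipitates. Egr1 (0.320), Homer1 (1.43) and Plk2 (0.158) were above 0 only in FC dendrite 1, the library with the most genes above 0. In the single-end run Plk2 was again above 0 in that library alone, at 0.218. Egr1 was there listed at 0 in all 4 libraries, and Homer1 was at 0.602 in HC dendrite 1 alone. Junb was at 0.356 and 1.14 in FC dendrite and listed at 0 in both HC dendrite libraries, a log2 difference of 0.45 (SE 0.22, limma adjusted p = 0.780, 15213 genes). Nr4a1 was at 0.312 and 0.0508 in FC dendrite and listed at 0 in both HC dendrite libraries. Per1 was at 1.53 and 0.128 in FC dendrite against 0.0600 and 0.0651 in HC dendrite. Btg2 was at 5.73 and 8.17 in FC dendrite against 99.5 and 0.370 in HC dendrite, and the single-end run also had both FC values between the HC values, with 11.4 and 11 against 113 and 0.

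After scaling, 3 of the 10 genes were higher in both FC dendrite libraries (Junb, Nr4a1 and Per1), against 20.6% of all genes above 0 in dendrite. Of the 10, 8 were above 0 in a paired-end dendrite immunoprecipitate. As deposited 4 were, with Arc added, against 23.2%. In both runs 0 were, against 6.36% of all genes. By limma 0 of 2928 genes passed in dendrite (background 0%), also under robust moderation. Unadjusted p was under 0.05 for 96 genes, of which 57 were higher. All genes tested had a median log2 difference of 0.08 scaled and 0.47 as deposited. The 6 oligodendrocyte markers summed to 34.3 to 131 FPKM in FC dendrite against 5.52 to 14.3 in HC dendrite, and the 6 CA1 pyramidal neuron markers to 270.1 to 729 against 64.2 to 709. Their part in the dendritic values was not tested. With both locations together as deposited, Arc alone of the 10 was higher in every FC library than in any HC library of either location, against 6.46% of all genes, and after scaling 0 were, against 4.63%. By limma 0 genes passed over both locations (background 0%), also under robust moderation, with 147 at an unadjusted p under 0.05. Arc had a log2 difference of 1.80 (SE 0.95, adjusted p = 0.700).

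Whether the fear conditioning difference itself differed between dendrite and soma was tested as an interaction. By limma 0 of 2928 genes passed (background 0%), with 102 at an unadjusted p under 0.05, and robust moderation also gave 0. The difference in dendrite minus that in soma was 0.83 for Arc (SE 1.91, adjusted p = 0.841), -1.82 for Plk2 (SE 1.78) and 2.15 for Per1 (SE 1.77). For genes below the minimum it was -1.66 for Egr1 (SE 0.57, limma adjusted p = 0.666) and -1.20 for Npas4 (SE 0.49, adjusted p = 0.666). With 1 library left out and no minimum, it spanned -1.95 to -1.32 for Egr1, -1.45 to -0.90 for Npas4 and -0.38 to -0.04 for Fos. Calls of these genes changed without FC soma 1 or FC soma 2. The lone FC soma library adds no spread of its own there, so these calls are not read as results.

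Dendrite and soma immunoprecipitates were then compared over both behaviours. Plk2 was at 0 to 0.158 FPKM in the 4 dendrite libraries, and at 22.4, 8.66, 4.22 and 0 in the soma libraries. Its log2 difference, dendrite minus soma, was -2.42 (SE 0.89, limma adjusted p = 0.650). Npas4 was listed at 0 in 4 of 4 dendrite libraries and was above 0 in 3 of 4 soma libraries, a log2 difference of -0.63 (SE 0.24, adjusted p = 0.642). Egr1 (-0.92, SE 0.28) and Homer1 (-0.91, SE 0.32) had the same sign and the same limma adjusted p of 0.642. Arc had the opposite sign at 0.82 (SE 0.95, adjusted p = 0.670), and Btg2 was at 0.52 (SE 1.49). With 1 library left out and no minimum, the difference spanned -0.75 to -0.48 for Npas4, -1.06 to -0.74 for Egr1 and -0.19 to -0.02 for Fos. Their calls changed without FC soma 1 or FC soma 2, where the lone FC soma library adds no spread of its own. The share of all genes passing there is not given, so these calls are not read as results. Summed FPKM of the 9 astrocyte markers was 134 to 428 in dendrite libraries and 1.22 to 81.5 in soma libraries, and its part in these differences was not tested. By limma 0 of 2928 genes passed (background 0%), with 139 at an unadjusted p under 0.05, and robust moderation also gave 0.

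**Figure D4:**
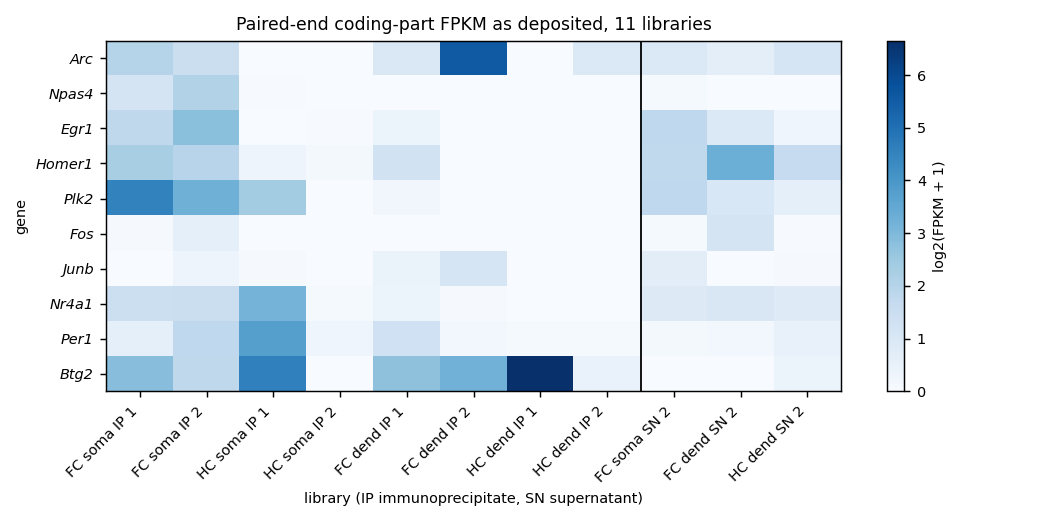
Coding-part FPKM of the 10 genes in the 11 paired-end libraries, as log2(FPKM + 1) in colour, with immunoprecipitates left and supernatants right of the line. Homer1 at 8.90 is the highest value in a supernatant, and Btg2 at 99.5 in HC dendrite 1 is the highest value of all.

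The supernatants held most of these mRNAs as well. Homer1 was at 1.43, 0, 0 and 0 FPKM in the 4 dendrite immunoprecipitates, against 8.90 in the FC and 2.15 in the HC dendrite supernatant. Both supernatants were above all 4 immunoprecipitates, and the single-end run had Homer1 at 0 to 0.602 in the immunoprecipitates against 6.66 and 5.60. The log2 difference of Homer1, immunoprecipitate minus supernatant, was -1.98 (SE 0.80, limma adjusted p = 1). In the fit with no minimum the same difference of Homer1 had an SE of 0.40 and a limma adjusted p of 0.0552. Arc was at 0.577 in the FC and 1.17 in the HC dendrite supernatant, and at 0.898 in the FC soma supernatant, against 46.7 in the highest immunoprecipitate. The single-end supernatants had Arc at 3.30 in FC dendrite, 2.56 in HC dendrite and 0.964 in FC soma. Egr1 was at 0.894 in the FC against 0.220 in the HC dendrite supernatant, and Fos at 1.27 against 0.0203. With 1 supernatant per group these last differences have no replicate check, and the single-end run did not repeat them: it listed Fos at 0 in both, and had Egr1 at 0.535 in the FC against 1.0 in the HC dendrite supernatant. By limma 2 of 2938 genes passed between dendrite immunoprecipitates and supernatants (0.0681%), none of them among the 10. Btg2 was at 5.73, 8.17, 99.5 and 0.370 in the dendrite immunoprecipitates against 0 and 0.276 in the supernatants, a log2 difference of 2.70 (SE 1.62, adjusted p = 1).

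**Figure D5:**
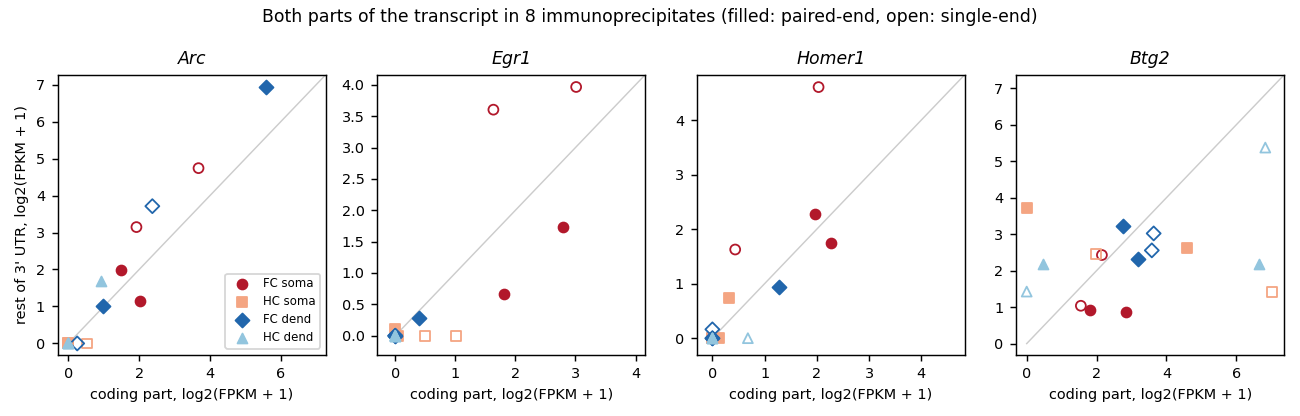
Rest of the 3′ UTR against the coding part, both as log2(FPKM + 1), for 4 genes in 8 immunoprecipitates; filled symbols are paired-end and open symbols single-end runs, and the line marks equal values. Arc in FC dendrite 2 is high in both parts, at 46.7 and 121 FPKM, while Btg2 values do not follow the line.

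The rest of the 3′ UTR was compared with the coding part for Arc, Egr1, Homer1 and Btg2. It was listed at 0 in all 11 libraries for Fos and Npas4. In the paired-end run FC dendrite 2 was the highest immunoprecipitate in both parts of Arc. As deposited both FC soma libraries were the highest in both parts of Egr1 and of Homer1. After scaling FC soma 1 was at 1.16 in the rest of the 3′ UTR of Homer1, below HC soma 1 at 1.41. For Btg2 the parts differed: the rest of its 3′ UTR was at 8.37 and 3.99 in FC dendrite against 3.54 and 3.56 in HC dendrite, where the coding part had 99.5 and 0.370. In soma that part of Btg2 was at 0.823 and 0.883 in FC against 5.16 and 12.2 in HC, and HC soma 2 had a coding value of 0. The single-end run did not repeat either separation in that part of Btg2. It had 4.38 and 1.05 in FC soma against 1.67 and 4.49 in HC soma. In dendrite it had 7.11 and 4.88 in FC against 40.4 and 1.69 in HC.

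Other genes of the same programme were listed by symbol. Of 22 other activity-induced transcription factors, 3 reached the expression minimum and 0 passed in soma or dendrite. After scaling Egr3, Nr4a2, Nr4a3 and Klf10 were higher in both FC soma libraries, and Jund was lower in both. That is 4 of the 22, of which 17 were above 0 in an immunoprecipitate, against 30% of all genes above 0 in soma. For Jund the share of such genes is 4.35%. The 4 of this list with the highest means were Myc, Bhlhe40, Jund and Nfil3, with log2 differences in soma of -1.70, 0.96, -1.84 and -1.25. Of 33 other activity-induced effector genes, 31 were above 0 in an immunoprecipitate, 5 were tested and 0 passed. After scaling 11 were higher in both FC soma libraries, against 30% of all genes, and 1 lower, against 4.35%. Nrn1, which encodes the secreted neuritin, had scaled FPKM of 2.28 and 10.3 in FC soma and 0.818 and 1.15 in FC dendrite, and was listed at 0 in all 4 HC libraries. The log2 difference of Nrn1 was 2.60 in soma (limma adjusted p = 0.568) and 0.98 in dendrite (adjusted p = 1). The other effectors with the highest means differed in sign, with log2 differences in soma of -2.22 for Pim1, 1.66 for Scg2 and 1.79 for Rheb. Bdnf, a growth factor that neuronal activity induces, was above 0 in FC dendrite 1 alone, at a scaled FPKM of 0.0886. Of 20 upstream signalling and transcription factors 8 were tested and 0 passed. Elk4, a partner of SRF, had scaled FPKM of 1.19 and 1.5 in FC soma against 14.7 and 12.9 in HC soma, a log2 difference of -2.66 (limma adjusted p = 0.568). The other upstream factors with the highest means, Atf1, Mef2c and Mkl2, had -1.35, -0.34 and 0.93. Of 22 relatives of the 10 genes 5 were tested and 0 passed, and Tob1, Plk1 and Npas2 had log2 differences in soma of -0.60, -0.69 and 0.19. The median log2 difference in soma was -1.70 for the tested transcription factors, 1.79 for the effectors, 0.71 for the upstream factors and -0.60 for the relatives, against 0.43 for all genes tested. The 5 of the 10 genes at the minimum had a median of -0.75 in soma and 0.11 in dendrite, against 0.43 and 0.08 for all genes tested. With no minimum the 10 genes had a median of 0.71 in soma and 0.10 in dendrite, against 0.03 for all genes in each, so the sign of the somatic median depends on the minimum.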

How the data were processed

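The Nugen Ovation RNA-Seq System V2 amplified the RNA and the Illumina TruSeq DNA kit gave libraries, per the labels' protocols. CASAVA 1.9, STAR 2.1.1d, Cufflinks 2.0.2 and mm9 are named per the submitters' processing notes, without settings. The authors deposited FPKM per library and transcript part, per the file headers; no source used here gives strand use or scaling. FPKM hold no counts, so depth was estimated from the spacing of low values of genes with 1 model of at least 1500 bases, and 87.5 to 95.6% of the values used lay within 0.15 of 1, 2 or 3 reads. Fragments per gene follow from that estimate and the longest model.

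Paired-end libraries were scaled by median ratios over 870 genes above 0 in all 8 immunoprecipitates, or 765 in all 11 libraries. limma 3.58.1 in R 4.3.3 tested log2(scaled FPKM + 1) of genes with a mean of at least 1, with a trended prior, two-sided, with p adjusted over all genes by Benjamini-Hochberg at 0.05 (4 residual degrees of freedom, or 6 with supernatants). Only 5 of the 10 genes (Arc, Nr4a1, Btg2, Per1 and Plk2) reached that minimum among immunoprecipitates, and the other 5 are given from a fit of all genes above 0. The single-end run was a technical repeat. Simulated data served only to check that known log2 differences were recovered on average, at a spread well below that of these data. How many true changes the test would call at the spread of these data is not given. The 10 genes and the lists were chosen with earlier results of these data known. Named were all 10 genes, the 4 highest of each list, list genes past the threshold, Bdnf, and the 2 genes most correlated with a member above 0 in at least 8 of 11 libraries, of which 1 result is not reported here; list genes without overlap are named outside that rule, after their values were seen. Alternatives were pseudocounts of 0.1 and 5, no minimum or one of 5, no scaling, the single-end run, the rest of the 3′ UTR, robust moderation, a replicate block and leaving out each library.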

Additional observations from a re-analysis of the deposited data

How the results depend on the processing

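The counts of genes past the threshold held at 0 in dendrite under all 17 alternatives. In soma the count was 0 and became 1 without scaling (Atpase6), and 0 to 135 when 1 library was left out, where a lone sample is assumed to vary like the other groups. Over both locations it was 0, and 2 with a minimum of 5 (Snap25 and Vsnl1). For the interaction it was 0, and 1 for the remaining 3′ UTR (Atp9a). For dendrite against soma it was 0, and 1 without scaling (Atpase6) and 1 in the single-end run (Mir1906-1). For immunoprecipitates against supernatants it was 2, and 1 with pseudocounts of 0.1 and 5, with a minimum of 5 and with the replicate block, 376 with no minimum, 10 in the single-end run, 0 in the rest of the 3′ UTR and 0 to 2 with 1 library left out. The cause was not tested. Same-numbered libraries did not deviate together (Pearson's r of deviations -0.02 to 0.06), so the numbers were not used as pairs, and the replicate block gave 0 in the other 5 comparisons.

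Of 592 alternative values of the 10 genes, 515 kept direction and call, 26 reversed and 18 newly passed, and 33 have no direction because the main or the alternative value is 0. The 18 are Fos, Npas4 and Egr1 in 3 comparisons without FC soma 1 or 2, in fits without a minimum added after the data were seen. In those fits the lone FC soma library adds no spread of its own, and the share of all genes passing is not given. These calls are therefore not read as results. Btg2 reversed in dendrite without HC dendrite 1 (1.76), in soma with a pseudocount of 0.1 (0.47), without scaling (0.0358) and without HC soma 1 (2.04). Its interaction reversed in the single-end run (3.65), the rest of the 3′ UTR (4.31), and without FC soma 1 (0.05), HC dendrite 1 (2.52) or HC soma 2 (2.17). Its dendrite against soma difference reversed in the single-end run (-0.0883), the rest of the 3′ UTR (-0.61), and without HC dendrite 1 (-0.97) or HC soma 2 (-0.80). With 1 library left out, Btg2 spanned -4.38 to 1.76 in dendrite, -3.44 to 2.04 in soma, -3.62 to 2.52 in the interaction and -0.97 to 2.1 in dendrite against soma. For Arc the interaction reversed with a pseudocount of 0.1 (-0.42) and in the single-end run (-0.76), as did dendrite against soma in that run (-0.73). Junb reversed in dendrite in the rest of the 3′ UTR (-0.49), in soma without FC soma 2 (-0.0611) or HC soma 2 (-0.0345), in the interaction (single-end -0.78, 3′ UTR -1.47) and in dendrite against soma (-0.39 and -0.25). Homer1 reversed in dendrite in the single-end run (-0.42), and Fos there in the interaction (0.13) and in dendrite against soma (0.0655). Low values rest on few fragments, and 2 libraries a group limit every test.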

Other observations

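Among the other genes that were highly correlated over 11 paired-end libraries, Nr4a1 was closest to Fam65b (Pearson's r = 0.98) and mKIAA0569 (0.98), and Per1 to Hdac3 (0.97) and Ppp1r13b (0.97). In all 4 of these genes the highest library was HC soma 1, at 22.2 FPKM for Fam65b, 4.92 for mKIAA0569, 10.3 for Hdac3 and 20.1 for Ppp1r13b, as it was for Nr4a1 and Per1. Btg2 was closest to 2010305A19Rik (0.94), which had its highest value of 17.3 FPKM in HC dendrite 1, and to Klhdc2 (0.92). Homer1 was closest to Fam174a (0.94) and Ndst3 (0.93), both highest in the FC dendrite supernatant, at 7.12 and 15.7 FPKM. The libraries share amplification and depth differences, and no p is given.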
